A study of Mus musculus with 12 samples.

Results

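Carbonic anhydrases other than Car4 were examined in mouse taste epithelium, from the circumvallate papilla on the rear of the tongue. The set holds 9 genes of 52670 symbols: Car2, Car3, Car5b, Car6, Car8, Car9, Car12, Car13 and Car14. They were chosen by name from the family of 16 symbols with their counts and TPM over the 4 bins already known, so every value of a member here is a description of these libraries. Adult mice of 11 to 12 weeks, all of genotype Sox2GFP and with no agent given in the labels, supplied the cells. Dissociated epithelium was sorted by brightness of the green reporter into the bins Low, MedLow, HiMed and High, and cells negative for the reporter were not kept. Each bin has 3 libraries of polyadenylated RNA, and a replicate is a pool of 7 to 13 animals. The reporter reads Sox2 activity and not a cell type, so a bin can hold several kinds of epithelial cell. Fewer cells of a type and less RNA per cell cannot be told apart in such bulk libraries.

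Carbonic anhydrases speed the conversion of carbon dioxide and water to bicarbonate and a proton. Their forms differ in where they work: Car2, Car3 and Car13 in the cytosol, Car5b in mitochondria, Car6 in secretions, and Car9, Car12 and Car14 at the cell surface with the active site outside. Car8 belongs to the family by sequence but lacks the catalytic activity. In taste buds the family is best known from Car4 of sour-sensing cells, which takes part in the taste of carbonation.

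Totals ran from 25.7 M to 55.6 M counts per library. Sox2 itself was 63.8 to 76.1 CPM (counts scaled per 1e6 by TMM) in the Low libraries and 358 to 382 CPM in the High ones, with MedLow (97.1 to 99.3) and HiMed (168 to 173) between, in the order of the labels. All 7 fixed markers of basal keratinocytes, all 10 of suprabasal keratinocytes and all 5 taste bud keratins were detected in every bin. Among fixed markers of other cells, those of fibroblasts summed to 591 to 632 CPM in Low and 8.37 to 17.4 CPM in High. Dcn made up nearly all of the Low sum (608 CPM), Lum was at 0, and Pdgfra went from 2.67 CPM in Low to 5.99 CPM in High. Gland markers summed to 222 to 831 CPM in Low and 2.12 to 59.6 CPM in High. The sum of leukocyte markers was highest in High, at 103 to 308 CPM against 33.2 to 51.0 CPM in Low, mostly Lyz2 (172 and 32.7 CPM). Cd68 averaged 3.17 CPM in Low and 4.39 CPM in High. Cd74 went the other way, from 6.42 CPM in Low to 0.281 CPM in High, as did Csf1r (1.09 and 0) and Ptprc (0.291 and 0.0797). Cd3e was at 0 in every bin.

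Upstream sequences were available from RefSeq for 5 of the 9 members and were searched for the core of the hypoxia response element, ACGTG or GCGTG on either strand, because Car9 and Car12 are textbook targets of the hypoxia-inducible factors. The sequences shown are those of Car12 and Car5b, which were lower and higher in High than in Low, and the match nearest the start of Car9. Each is on its gene's strand, from build GRCm38.p6, which is not the build the submitters name, and capitals mark a match to the core.
Car12, chr9:66713436-66713685 (+ strand), the 250 bases before the start: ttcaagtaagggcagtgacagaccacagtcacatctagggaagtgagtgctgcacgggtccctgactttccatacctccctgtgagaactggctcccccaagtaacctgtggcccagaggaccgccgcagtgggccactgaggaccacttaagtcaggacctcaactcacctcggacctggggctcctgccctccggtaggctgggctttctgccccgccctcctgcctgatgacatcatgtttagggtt
Car5b, chrX:164028011-164028260 (- strand), the 250 bases before the start: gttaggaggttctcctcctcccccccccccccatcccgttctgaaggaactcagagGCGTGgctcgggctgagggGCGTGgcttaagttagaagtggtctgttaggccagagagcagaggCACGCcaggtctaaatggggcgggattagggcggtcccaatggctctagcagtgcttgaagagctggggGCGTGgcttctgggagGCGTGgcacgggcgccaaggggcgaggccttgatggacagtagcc
Car9, chr4:43506996-43507025 (+ strand), the 30 bases before the start: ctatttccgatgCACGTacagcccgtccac
Car12 had 0 matches in its 250 bases and Car5b had 5, the nearest of which began 45 bases before the start. Car9 had 1 match, which began 18 bases before the start, Car14 had 1 and Car6 had 2 overlapping matches of the same palindrome. A match was found in 38.6% of 32851 windows of 250 bases in the same table, so it is common, and it describes letters in the window and not a site.

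Of the 9 members, 5 had enough counts for the fit across all genes: Car2, Car13, Car12, Car5b and Car9. The other 4, Car8, Car6, Car3 and Car14, were at or close to 0 counts in most libraries. A gene was called when its adjusted p was below 0.05 in edgeR's quasi-likelihood test over 17432 genes. From Low to High, 2 members were called higher (Car2 and Car5b), where 20.1% of all genes were, and 2 were called lower (Car12 and Car13), where 21.2% were. Among the 4 bins, 4 members were called different, against 41.8% of all genes. All 5 fitted members had High libraries wholly above or below the Low libraries, as did 52.5% of all genes. The members were chosen on these same contrasts, so nothing is read from their counts, and no p is given for a member.

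**Figure D1:**
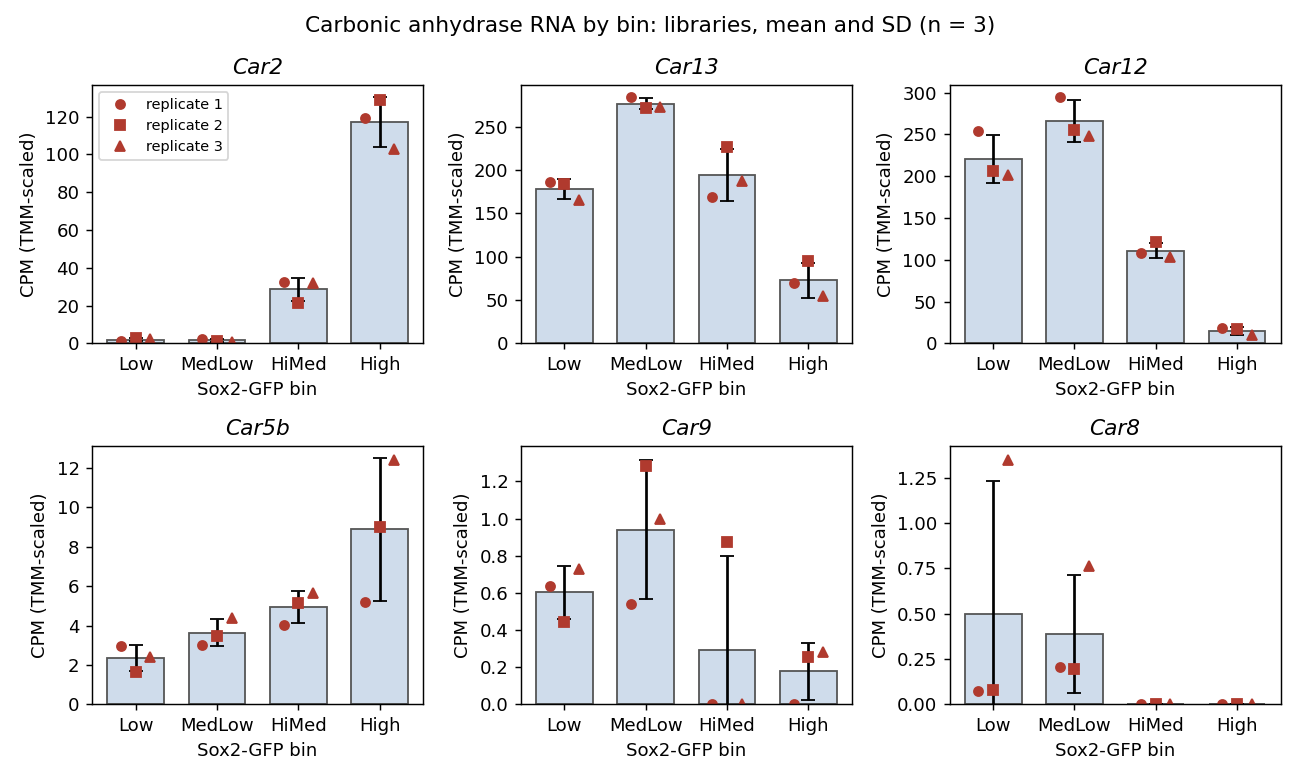
TMM-scaled CPM (vertical axes from 0) of 6 carbonic anhydrases in the 4 Sox2 reporter bins; points are libraries, bars the mean and whiskers the SD of n = 3 libraries. Car2 stood at 103 to 129 CPM in High and at most 2.70 CPM in Low and MedLow, while Car12 ran from 201 to 294 CPM there and 9.98 to 18.5 in High, and Car13 was highest in MedLow.

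Car2, the fast cytosolic enzyme found in many acid- and bicarbonate-secreting epithelia, had the largest fold change of the 5 fitted members between Low and High. It was highest where the reporter was brightest. It measured 1.18, 2.70 and 2.36 CPM in Low replicates 1, 2 and 3, and 2.62, 1.5 and 0.763 CPM in MedLow. It measured 32.4, 21.5 and 31.8 CPM in HiMed and 120, 129 and 103 CPM in High. The Low and MedLow libraries overlapped, every HiMed library lay above them, and every High library lay above every HiMed library. The mean of 117 ± 13.2 CPM in High (SD, n = 3) was 56.3 times the 2.08 ± 0.801 CPM in Low, with a fitted log2 fold change of 5.85 (SE 0.36). On the log2 scale HiMed exceeded MedLow by 4.13 (SE 0.35) and High exceeded HiMed by 2.03 (SE 0.29), while in CPM the larger step was the one from HiMed (mean 28.6) to High. From Low to MedLow the fitted difference was -0.31 (SE 0.38), smaller than its error, and it was 0.023 without MedLow replicate 3.

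Red blood cells also hold much Car2. Among their markers, Hba-a1 averaged 1.61 CPM in Low and 0.0363 CPM in High, and Hbb-bs 3.96 CPM in Low and 0.0930 CPM in High. The 6 erythroid markers together summed to 4.26 to 9.24 CPM in Low and 2.27 to 3.29 CPM in High. Alas2, the erythroid heme synthesis gene, went the other way, from 0.303 CPM in Low to 2.47 CPM in High, and made up most of the High sum. The sum of leukocyte markers was also highest in High, mostly through Lyz2, while Cd74, Csf1r and Ptprc had lower means there than in Low. The part of these cells in the Car2 values was not tested.

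Car12, a surface enzyme with its active site outside the cell, was among the highest of the family in the dim bins and lowest in High. Its 3 Low libraries measured 254, 206 and 201 CPM and the MedLow ones 294, 255 and 248. HiMed gave 109, 121 and 104 CPM, and High 18.5, 17.5 and 9.98. Low and MedLow overlapped, HiMed lay wholly below both, and High lay wholly below HiMed. The mean was 220 ± 28.9 CPM in Low and 15.3 ± 4.64 CPM in High (SD, n = 3), 14.4 times lower in High (log2 fold change -3.85, SE 0.20). On the log2 scale HiMed differed from MedLow by -1.26 (SE 0.18) and High from HiMed by -2.86 (SE 0.19), while MedLow exceeded Low by 0.27 (SE 0.17).

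Car13, a second cytosolic enzyme, was abundant in every bin and had its largest mean in MedLow. It measured 186, 184 and 165 CPM in Low, 284, 272 and 273 CPM in MedLow, 168, 227 and 187 CPM in HiMed, and 69.2, 94.5 and 54.6 CPM in High. The MedLow libraries lay above those of every other bin and the High libraries below those of every other bin, while Low and HiMed overlapped. The log2 fold change was 0.63 (SE 0.16) from Low to MedLow, -0.51 (SE 0.16) from MedLow to HiMed and -1.41 (SE 0.16) from HiMed to High. The ratio of means of Low to High was 2.45 (log2 fold change of High over Low -1.29, SE 0.16). The call of Car13 between Low and MedLow was lost without any 1 of the 6 libraries of those bins, where the log2 fold change ran from 0.58 to 0.67. Its call between MedLow and HiMed was lost without any 1 library other than HiMed replicate 2, High replicate 2 or High replicate 3, and was the same in direction in each case.

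The sum of suprabasal keratinocyte markers followed a course like that of Car13, though not every marker did. It was 16970 to 19626 CPM in Low and 35601 to 38983 in MedLow, then 17292 to 37402 in HiMed and 11137 to 15249 in High. Krt13 and Krt4 had their largest means in MedLow. Krt6a averaged 8764 CPM in Low and 10120 CPM in High, where it made up most of the sum. Krt16 had its largest mean in Low and Krtdap in HiMed. Basal keratinocyte markers summed to 33691 to 34225 CPM in Low and 21943 to 23572 in MedLow, then 13718 to 14204 in HiMed and 5346 to 8187 in High. Taste bud keratins summed to 526 to 733 CPM in Low and 324 to 503 in MedLow, then 780 to 968 in HiMed and 2649 to 4725 in High, highest in High as Car2 was. The part of these cell types in the differences of Car2, Car12 and Car13 was not tested.

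Car5b, the mitochondrial enzyme that supplies bicarbonate to carboxylases, was scarce and had its largest mean in High. It measured 2.97, 1.65 and 2.42 CPM in Low and 3.03, 3.47 and 4.40 CPM in MedLow. It measured 4.02, 5.14 and 5.63 CPM in HiMed and 5.18, 9.03 and 12.4 CPM in High. The mean was higher in each brighter bin, but HiMed overlapped both MedLow and High, and High spread over a wider range than the other bins. The High mean was 3.79 times the Low mean (log2 fold change 1.91, SE 0.35), and none of the steps between neighbouring bins was called, at 0.62 (SE 0.34), 0.44 (SE 0.34) and 0.85 (SE 0.34). Without High replicate 1, the lowest library of High, the step from HiMed to High was 1.12 and was called.

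Car9, the surface enzyme that marks hypoxic tissue, was near the limit of detection. The Low libraries held 27, 11 and 28 counts and the MedLow ones 21, 53 and 38. HiMed held 0, 32 and 0 counts, and High 0, 14 and 14. In CPM the High libraries (at most 0.279) lay below the Low libraries (at least 0.444), and HiMed overlapped every bin. In counts, High and Low overlapped. High over Low had a fitted log2 fold change of -1.74 with an SE of 1.67, and Car9 was not called in any of the 4 comparisons. Without HiMed replicate 2 the bin was at 0 counts, and Car9 was then called lower in HiMed than in MedLow. An antisense gene, Gm12454, overlaps Car9 in the GENCODE annotation of GRCm38, and with no statement of how strand was used, reads of the overlap cannot be told apart. Gm12454 held 52, 20 and 24 counts in Low and 19, 0 and 55 in High.

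Car8, the member without catalytic activity, is known to bind the IP3 receptor Itpr1. It held 3, 2 and 52 counts in Low, 8, 8 and 29 in MedLow, and 0 counts in all 6 libraries of HiMed and High. Pooled over the bin, Low had 0.539 CPM, at least 26.9-fold higher than the floor in High, where 0 counts allow up to 3 counts over the 3 libraries (0.0200 CPM). Replicate 3 decided that value: without it Low had 5 counts and at least a 3.71-fold excess. MedLow had 45 counts, at least 19-fold above the High floor, and 16 counts and at least 9.96-fold without replicate 3. These bounds cover counting error in High only and take the Low and MedLow counts as exact, so with few counts the true excess could be smaller.

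The remaining members were not detectable beyond a few reads. Car6, the enzyme secreted in saliva, held 8 counts in Low replicate 1, 1 count in Low replicate 2 and 0 in the other 10 libraries. Gland markers summed to 222 CPM in Low replicate 1, 831 in replicate 2 and 618 in replicate 3, and the part of gland cells in the Car6 counts was not tested. Car3, a cytosolic form of low activity and best known from muscle and fat, held 2 counts in High replicate 1. All 7 adipocyte markers were at 0 in High, and over the other bins Plin4, Fabp4 and Plin1 had a few reads, with a sum of at most 0.519 CPM. Skeletal muscle markers summed to 8.07 to 9.51 CPM in Low and 3.10 to 3.49 CPM in High, where Mylpf was 1.53 CPM and Ckm, Myh4 and Tnnt3 were at 0. The part of such cells in these 2 counts was not tested. Car14, a surface form, held 1 count in Low replicate 1.

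**Figure D2:**
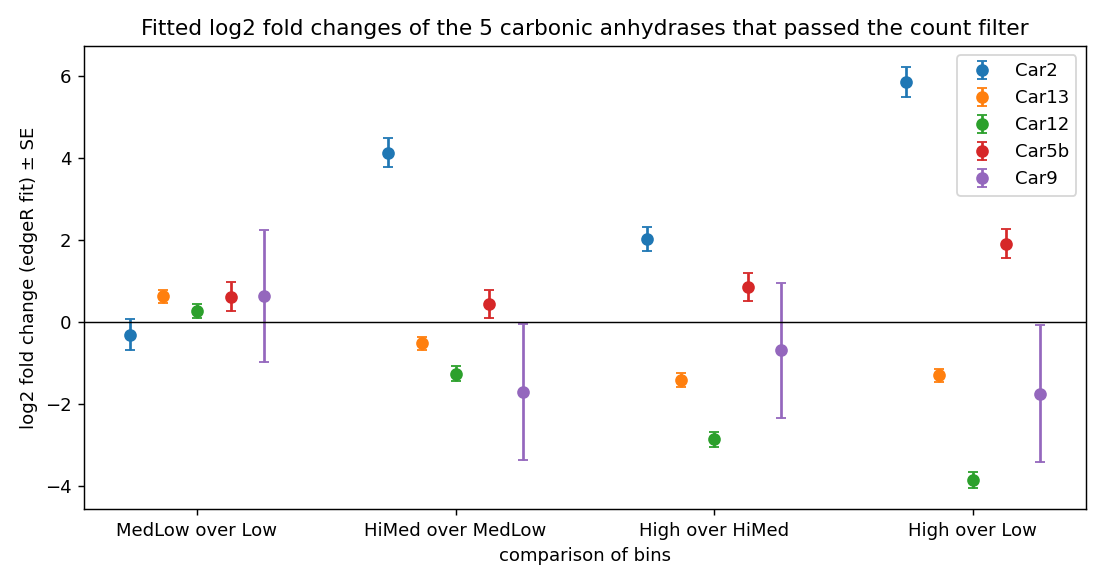
Fitted log2 fold changes (edgeR quasi-likelihood fit to 12 libraries, vertical axis) with their SE for the 5 fitted carbonic anhydrases in 4 comparisons of bins. Car2 stands at 4.13 between MedLow and HiMed and 5.85 between Low and High, Car12 at -3.85 between Low and High, and the SE of Car9 is 1.61 to 1.67.

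Calls between neighbouring bins were likewise taken over the 5 fitted members. From Low to MedLow, 1 member was called higher (Car13) and 0 lower, against 4.08% and 2.52% of all genes. From MedLow to HiMed, Car2 was called higher, against 7.38% of all genes, and Car12 and Car13 lower, against 6.12%. From HiMed to High, Car2 was again called higher, against 10.6%, and Car12 and Car13 lower, against 11.6%. These comparisons share bins, so their calls are not independent. Within each replicate number, High exceeded Low in 3 of 3 for Car2 and Car5b, and lay below it in 3 of 3 for Car12, Car13 and Car9. This must be so where High and Low libraries do not overlap, and it adds nothing to that.

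The TPM values, which take transcript length into account, allow levels to be compared between genes. The 16 carbonic anhydrase symbols summed to 272 ± 11.7 TPM in Low and 336 ± 10.5 in MedLow, then 253 ± 20.7 in HiMed and 238 ± 28.0 in High (SD, n = 3). The MedLow libraries were above those of the other bins. HiMed (234 to 275 TPM) overlapped both Low and High, and the largest High library (260.1 TPM) was just below the smallest Low library (261 TPM). The family's makeup shifted more than its sum. Car2 made up 1.19 ± 0.708% of the family's TPM in Low and 0.437 ± 0.237% in MedLow, then 12.9 ± 1.70% in HiMed and 62.4 ± 3.97% in High (SD, n = 3). Car12 made up 36.2 ± 2.50%, 35.1 ± 1.79%, 20.7 ± 0.805% and 3.27 ± 0.718% in the same order. Car13 held the largest share in Low (46.1 ± 3.22%), MedLow (56.9 ± 0.767%) and HiMed (57.2 ± 4.31%), and the next largest, after Car2, in High (24.6 ± 3.99%).

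The order of the members by mean TPM differed between the bins. Car13, at 125 TPM, and Car12, at 98.7 TPM, led in Low, with Car2 at 3.19, Car5b at 1.07 and Car9 at 1.07 TPM. In Low the last 3 overlapped between libraries. In High, Car2 led at 148 TPM, followed by Car13 at 59.1, Car12 at 7.91 and Car5b at 4.73 TPM, and the libraries of Car12 (5.05 to 9.37 TPM) and Car5b (2.78 to 6.68 TPM) overlapped. There were 28.7 to 120 Car13 transcripts per Car2 transcript in Low, 81.8 to 271 in MedLow and 3.65 to 5.43 in HiMed. The smaller Low values were those of replicates 2 and 3. There the TPM of Car2 and Car9 stood higher relative to CPM than in replicate 1, as given under other observations. In High there were 1.99 to 2.92 Car2 transcripts per Car13 transcript. In the RefSeq annotation Car13, Car1, Car3 and Car2 are consecutive protein-coding genes of 1 cluster. Its outer genes carried nearly all of its reads and went in opposite directions between MedLow and High, while Car1 had 0 counts in all 12 libraries.

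**Figure D3:**
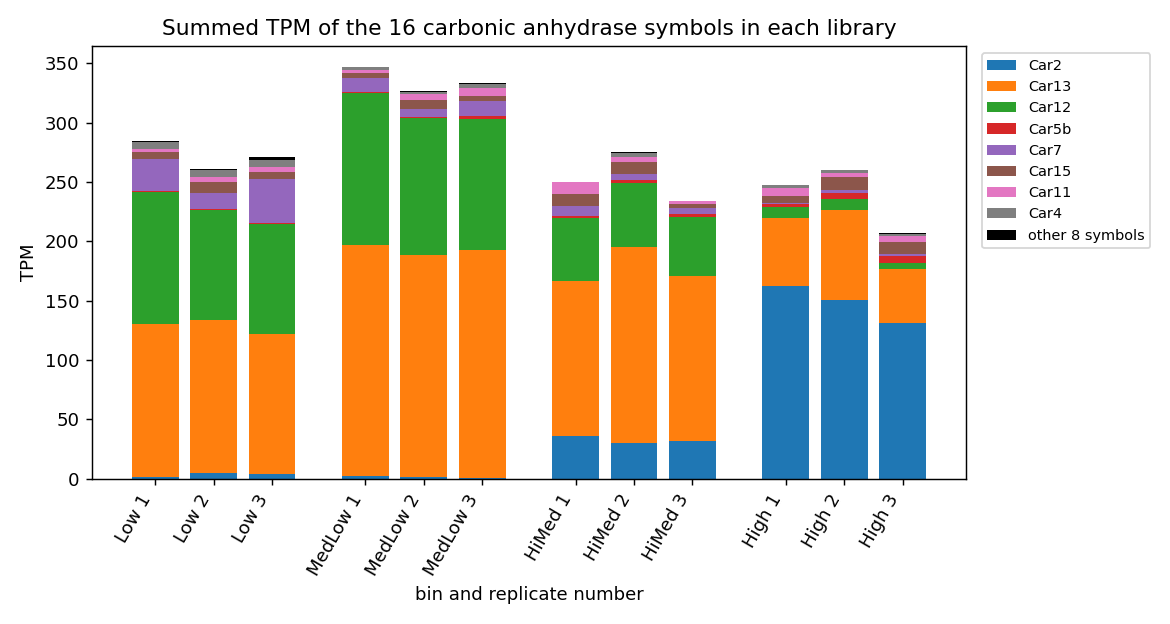
Stacked TPM of the 16 carbonic anhydrase symbols in each of the 12 libraries (vertical axis from 0), ordered by bin and replicate number. Car12 and Car13 fill most of each bar in Low, MedLow and HiMed, and Car2 fills 57.9 to 65.6% of each bar in High.

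Of the 7 other symbols of the family, Car1, Car5a and Car10 were at 0 counts in all 12 libraries, and Car4, Car7, Car11 and Car15 were fitted. Among these 4, 1 gene, Car7, was called between Low and High, and it fell. Of all genes, 21.2% were called lower and 20.1% higher. The median log2 fold change was -0.52 over the 4 and -0.01 over all genes. With limma on log2(TPM + 1), or with the 2 bins fitted alone, 2 of the 4 were lower. Car7, a cytosolic form best known from neurons, went from 22.8 ± 9.86 CPM in Low to 1.37 ± 0.431 CPM in High (SD, n = 3; log2 fold change -4.05, SE 0.39, edgeR adjusted p = 2.2e-06). Car4 measured 3.11 to 4.10 CPM in Low and 1.11 to 1.36 in MedLow, then 0 to 1.23 in HiMed and 1.18 to 1.85 in High, and its log2 fold change of -1.39 (SE 0.91) was not called. In High the mean TPM of Car2 (148) stood far above that of Car4 (2.24).

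The genes whose course over the 12 libraries was most like each member were found by Pearson r of log2(CPM + 0.5), among 10054 or 10055 genes of at least 10 CPM in their highest bin. Libraries of 1 bin share their gate and those of 1 replicate number their pool, so the 12 points are not independent. Nearest to Car2 were Ddi2 (r = 0.992), which went from 217 CPM in Low to 361 in High, the potassium channel Kcnc2 (0.986), from 0.112 to 29.2 CPM, and the actin-capping Tmod3 (0.985), from 184 to 258 CPM. For Car13 they included the sodium pump subunit Atp1b3 (0.992) and the glutathione synthesis gene Gclm (0.992). Both had their largest mean in MedLow, Atp1b3 at 566 ± 11.8 CPM. For Car12 they were Crybg1 (0.993), Itpripl2 (0.993) and Rasa3 (0.992), and for Car5b Cc2d1a (0.977), the antiviral adaptor Mavs (0.967) and Strc (0.957).

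Genes that handle the products of carbonic anhydrases were taken from lists that do not include the members, and compared between Low and High. The lists were chosen with earlier results of these data known. The genes named with a p, Car7 above among them, were picked as called genes with large changes, so each p is descriptive. The median log2 fold change of all 17432 genes was -0.01, and 20.1% of them were called higher and 21.2% lower. Of 15 fitted bicarbonate transporters, 3 were higher, 3 lower and 9 not called, shares near those of all genes, with a median of -0.52. The chloride and bicarbonate channel Cftr rose from 6.13 ± 2.86 to 107 ± 48.2 CPM (log2 fold change 4.14, SE 0.44, edgeR adjusted p = 4.9e-06). The sodium bicarbonate cotransporter Slc4a7 rose by 2.24 and Slc4a9 by 1.95, while the anion transporter Slc26a11 fell by 1.33. With limma on log2(TPM + 1) or log2(TPM + 0.1), 1 gene of this list was lower.

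Sodium-proton exchangers and proton channels held some of the larger differences. Of 14 fitted genes 5 were higher, 3 lower and 6 not called, with a median of 0.05, against 20.1% higher and 21.2% lower of all genes. Slc9a3 rose from 0.769 ± 0.226 to 45.1 ± 30.1 CPM (log2 fold change 5.85, SE 0.87, edgeR adjusted p = 1.0e-04) and Slc9a4 from 0.530 ± 0.170 to 16 ± 9.0 CPM (4.93, SE 0.55, edgeR adjusted p = 7.8e-06). The sour-sensing channel Otop1 rose by 4.05, and the proton pump Atp12a fell from 5.52 ± 3.41 to 0.238 ± 0.212 CPM. Without a count filter, 5 genes of this list were lower. Of 18 fitted subunits of the vacuolar proton ATPase, 11 were higher and 1 lower, with a median of 0.53, against 20.1% and 21.2% of all genes. The subunit Atp6v1e1 rose by 1.25, Atp6v1c2 by 1.24 and Atp6v1d by 0.83, while Atp6v0a4 fell from 17.8 ± 4.51 to 5.42 ± 1.45 CPM.

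Among carriers of lactate and their partners, 0 of 5 fitted genes were higher and 3 lower (all genes 20.1% and 21.2%), with a median of -1.41. Slc16a1 fell from 147 ± 8.54 to 37.9 ± 1.72 CPM (-1.96, SE 0.09, edgeR adjusted p = 1.9e-09), its chaperone relative Emb by 1.95 and Slc16a7 by 1.41. With library size only, and in each fit on TPM, 1 gene of this list was higher. Of 8 fitted carboxylases that use bicarbonate, 3 were higher and 3 lower (all genes 20.1% and 21.2%), with a median of -0.05. Pcx, the pyruvate carboxylase for which Car5b is known to supply bicarbonate, rose from 28.1 ± 2.13 to 63.9 ± 6.63 CPM (1.19, SE 0.10, edgeR adjusted p = 4.3e-07) and Pcca by 0.85, while the pyrimidine synthesis gene Cad fell by 1.54 and Acacb by 1.05. With limma on log2(TPM + 1), and also without Low replicate 2, 1 carboxylase was lower. Of 5 fitted aquaporins and Rh channels (all genes 20.1% higher and 21.2% lower), 2 were higher, Aqp11 by 5.24 and Aqp5 by 3.84, and 0 lower, though 1 was lower without Low replicate 1 and 2 without High replicate 2. Aqp5 went from 1.58 ± 0.592 to 22.4 ± 8.40 CPM.

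Of the IP3 receptors, Itpr1, which Car8 binds, rose from 17.2 ± 2.46 to 40.5 ± 6.99 CPM between Low and High (1.24, SE 0.18, edgeR adjusted p = 9.7e-05), and Itpr3, the form of type II taste cells, fell from 682 ± 41.9 to 356 ± 17.3 CPM (-0.94). The call of Itpr1 was lost with limma on log2(TPM + 1) without a filter. Of 18 genes listed as hypoxia-inducible, 2 were higher, 10 lower and 6 not called (all genes 20.1% higher and 21.2% lower), with a median of -0.35. The list also holds the factor genes Hif1a and Epas1, both among the 10 lower. The prolyl hydroxylase Egln3 rose from 62.9 ± 2.92 to 175 ± 28.9 CPM (1.48, SE 0.15, edgeR adjusted p = 2.5e-06). The glucose transporter Slc2a1 fell by 1.33, Adm by 1.12 and the hypoxia-inducible factor gene Epas1 by 1.09. With limma on log2(TPM + 1), 6 of these genes were lower, and without a filter 1 was higher.

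**Figure D4:**
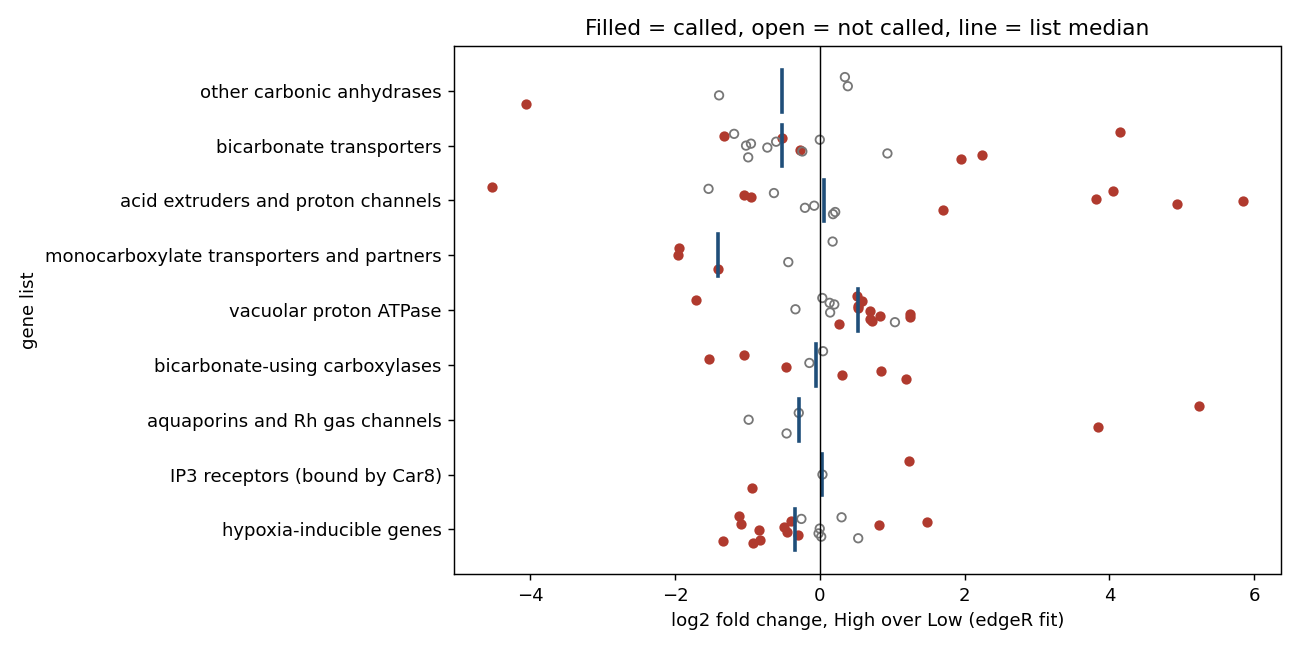
Fitted log2 fold change of High over Low (horizontal axis) for each gene of 9 fixed lists around carbonic anhydrases; filled points were called by edgeR, open points were not, and the line is the list's median. The vacuolar proton ATPase list has its median at 0.53 and the lactate carrier list at -1.41.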

How the data were processed

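Reads were quantified with Salmon 1.4.0 per the submitters' processing notes, which also name DESeq2 1.28.1 and the mouse build mm39. Annotation and summing to symbols: not given in the sources used here. Estimated counts were deposited unscaled, and the deposited TPM values were made by the authors. Estimated counts were rounded and fitted across all genes with edgeR 4.0.16 in R 4.3.3 (filterByExpr with a minimum count of 10, TMM, quasi-likelihood, 1 term per bin, all 12 libraries). The Benjamini-Hochberg method adjusted p over 17432 genes in each comparison, and SE is what the F statistic implies. Symbols left out held 0.0340% of counts. The members and lists were chosen with earlier results of these data known. Named genes were the 9 members, the 3 genes most like each member of at least 1 CPM, up to 4 called genes per list with the largest change and at least 1 CPM in the higher bin, Car4 and Sox2; Gm12454 and the marker genes were chosen after their values were seen. Some items that the rule or the marker lists hold are not reported here. Alternatives used DESeq2 1.42.0, limma 3.58.1 on log2 TPM, other scalings and filters, the bins compared alone, and each library left out.

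A replicate is 1 pool of mice that was sorted into bins, as the series text has it, and replicate numbers were therefore taken to pair libraries; no label states this for a number. Deviations from bin means over 9650 genes had r of 0.0765 to 0.364 for the 18 pairs of libraries with 1 number (above 0.1 in 16) and -0.296 to 0.0536 for the remaining 36. No library was a copy of another (chi-square per degree of freedom 27.6 to 94.9 within bins). Nothing says whether the pools were sorted on separate days.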

Additional observations from a re-analysis of the deposited data

How the results depend on the processing

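The calls of Car2, Car12 and Car5b between Low and High, and of Car2 and Car12 between MedLow and HiMed and between HiMed and High, held in all 22 alternatives, as did those of Car13 between Low and High and between HiMed and High. The call of Car13 between MedLow and HiMed was lost in 14 of 22 (log2 fold change -0.63 to -0.40), and that between Low and MedLow in 7, which left 0 members called there with limma on unfiltered log2(TPM + 1). With the replicate block, 4 members were called between Low and High, 1, 3 and 3 in the successive steps, the same numbers as without it, and it changed no other call of a member. Over all genes 7339 were then called between Low and High, against 7214. Genes called from Low to MedLow numbered 1151, against 697 with log2(TPM + 1), 652 with log2(TPM + 0.1) and 588 unfiltered, where the step from MedLow to HiMed had 1210 against 2352.

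Leaving out 1 library gave 6133 to 7587 genes called for High over Low, 677 to 1318 for MedLow over Low, 1370 to 2521 for HiMed over MedLow, 2749 to 3725 for High over HiMed and 6481 to 7525 for any difference. Members called were then 4 to 5, 0 to 1, 2 to 4 and 3 to 4 in the same order of comparisons. With all libraries but no count filter, 5 members were called between Low and High. Car9 was not among them, so the added one was a member left out of the main fit. Reversed values, of differences not called, were those of Car9 from Low to MedLow (-0.15 with log2(TPM + 1), filtered or not, and -0.26 with log2(TPM + 0.1)), of Car9 from HiMed to High (0.25 with log2(TPM + 0.1), 0.10 with the replicate block and 5.96 without HiMed replicate 2, which held all Car9 counts of its bin) and of Car2 from Low to MedLow (0.023 without MedLow replicate 3). Leaving out 1 library gave -0.83 to 0.023 for that value of Car2, and -1.27 to 5.96 for that of Car9 from HiMed to High. The cause was not tested for the others. Depth limits Car9, Car8, Car6, Car3 and Car14.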

Other observations

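The deposited counts and TPM differed in what they say of Car2 and Car9 in the Low libraries. TPM per CPM, relative to its median in that library over fitted genes with a mean of at least 10 CPM, was 1.47 for Car2 in Low replicate 1 but 2.60 in replicate 2 and 2.71 in replicate 3, against 1.46 to 1.49 in MedLow and 1.63 to 1.81 in High. HiMed replicate 2 had 2.17, and the other HiMed libraries 1.55 and 1.48. For Car9 it was 1.3 in Low replicate 1, and 3.67 and 3.63 in replicates 2 and 3, against 1.29 to 1.58 in MedLow. For Car13 it stayed between 1.09 and 1.13 in all 12 libraries, and for Car12 between 0.67 and 0.75. The order of Car2 levels, with High above HiMed above Low, is the same on both scales.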
